A study of Homo sapiens with 2 samples.

Results

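The matrix metalloproteinases (MMPs), the ADAMs (a disintegrin and metalloproteinase), the ADAMTS enzymes (ADAMs with thrombospondin motifs) and the tissue inhibitors of metalloproteinases (TIMPs) were examined in 2 RNA sequencing libraries. Members were all protein-coding genes with the symbol MMP, ADAM or ADAMTS followed by digits alone, together with TIMP1 to TIMP4. This gave 65 genes among 58051 annotated genes, namely 22 MMPs, 20 ADAMs, 19 ADAMTS genes and 4 TIMPs. The rule used symbols and no measured value, but it was chosen with earlier results of these data known. One library came from parental BEAS-2B cells, an immortalised human bronchial epithelial line, labelled wild type and between passage 20 and 30. The other came from BEAS-2B cells that overexpress the calcium-permeable cation channel TRPV3 (TRPV3-OE), between passage 4 and 8. Both lines grew on a collagen and fibronectin coat in the same medium, both were taken at confluence, and the labels name no agent for either. Passage differed with the group, so passage and TRPV3 cannot be told apart. How the overexpressing line was made, and whether it is 1 clone, is not given in the sources used here. Nor is it given whether its passages were counted from the making of the line.

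All 3 protease families belong to the metzincins, enzymes that hold a catalytic zinc ion with 3 histidines and use a glutamate to cleave peptide bonds. MMPs cut collagens, gelatin, laminins and other matrix proteins, ADAMs sit in the membrane and release the outer parts of growth factors, receptors and adhesion molecules, and ADAMTS enzymes are secreted and act on proteoglycans, procollagens and other matrix proteins. TIMPs bind the active site and block it. In airway epithelium these enzymes take part in wound closure, shedding of growth factors and turnover of the basement membrane.

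Gene counts totalled 17450658 in the parental and 17477953 in the TRPV3-OE library. With 1 library in each group, none of the differences could be checked against replicates, and p-values were not computed. Levels are counts per 1000000 counts (CPM) after scaling. A single count is worth 0.0584 CPM for parental cells and 0.0562 CPM for TRPV3-OE. Intervals are exact 95% intervals (Poisson for a level, Clopper-Pearson for a ratio). These intervals hold counting error alone, and PCR copies that carry no molecular identifier are not independent molecules. TRPV3 had 26 counts in the parental and 54077 in the TRPV3-OE library, as the labels say. Of 10 bronchial epithelial markers 7 had at least 100 counts over both libraries, and the list summed to 3898 and 4184 CPM (parental first, here and below). The airway factor NKX2-1 and the secretory marker SCGB1A1 were at 0 in both. Of 9 fibroblast markers 1, COL1A1, had at least 100 counts. The fibroblast list summed to 26.0 and 16.5 CPM, with COL3A1 and LUM at 0 in both libraries. VIM, the mesenchymal intermediate filament vimentin, which is on none of these lists and was chosen after its values were seen, had 13736 and 24 counts (802 and 1.35 CPM). Of 6 leukocyte markers 3 were at 0 in both, and the list summed to 0.350 and 0.225 CPM. Of 5 endothelial markers KDR and TEK were at 0 in both, and the list summed to 16.7 and 3.26 CPM, led by the cadherin gene CDH5 (268 and 35 counts). The part of other cell types in the results was not tested.

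The bases that encode the zinc-binding site show what the protease members share and how 1 of those with a much lower level departs from it. The site is a run of 11 residues, HEXXHXXGXXH, in which X is any residue. It is shown for members with at least 100 counts over both libraries whose levels differed at least 2-fold (MMP16 excepted) and for the most abundant ADAMTS, as 33 coding bases 5′ to 3′ in GENCODE 29 transcripts (GRCh38). Capitals mark the codons of the 3 histidines and the glutamate.
MMP14: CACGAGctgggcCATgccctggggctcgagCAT
MMP2: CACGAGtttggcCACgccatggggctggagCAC
MMP17: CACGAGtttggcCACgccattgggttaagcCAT
ADAM8: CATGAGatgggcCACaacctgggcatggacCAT
ADAM19: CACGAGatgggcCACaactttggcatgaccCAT
ADAMTS6: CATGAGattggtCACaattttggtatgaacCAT
ADAMTS7: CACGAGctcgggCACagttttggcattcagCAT
ADAM22: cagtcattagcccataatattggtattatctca
The stretch of ADAM22 is the one that aligned to the ADAM19 site, and it kept 1 of the 4 residues and is printed without capitals. These bases lie in coding exons. They are chr14:22843283-22843315 (plus strand, exon 5) for MMP14, chr16:55491827-55491859 (plus strand, exon 8) for MMP2 and chr12:131841659-131841691 (plus strand, exon 5) for MMP17. For the ADAMs they are chr10:133271880-133271912 (minus strand, exon 11) for ADAM8, chr5:157505734-157505766 (minus strand, exon 11) for ADAM19 and chr7:88134365-88134397 (plus strand, exon 13) for ADAM22. The site is split by an intron in ADAMTS6 (chr5:65300116-65329394, minus strand, exons 9 and 10) and ADAMTS7 (chr15:78788359-78789705, minus strand, exons 7 and 8).

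In the longest coding transcript of each gene, the motif was found in all 22 MMPs and in 12 of 20 ADAMs. The 8 ADAMs without it were ADAM2, ADAM7, ADAM11, ADAM18, ADAM22, ADAM23, ADAM29 and ADAM32, which are known as non-proteolytic members with adhesive or receptor roles. Among ADAMTS genes 14 of 19 had the form with glycine, and ADAMTS1, ADAMTS4, ADAMTS9 and ADAMTS15 had asparagine in its place. ADAMTS8 had neither form but kept the 3 histidines and the glutamate. The 12 ADAMs with the motif summed to 15306 counts in the parental and 17048 in the TRPV3-OE library, and the 8 without it to 142 and 33 counts, of which ADAM22 alone held 120 and 3. The cysteine switch PRCGXPD, the propeptide motif that keeps an MMP latent by occupying the zinc, was found in 17 of 22 MMPs, and MMP17, MMP19, MMP25, MMP26 and MMP28 lacked this exact form.

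Of the 65 members 23 had no count in either library, for which a floor of 3 counts was taken in each (0.175 and 0.168 CPM), in place of the exact interval. A further 12 had 1 to 19 counts over both libraries, 11 had 20 to 99, and 19 had at least 100. A gene was called higher or lower if its 2 levels differed at least 2-fold and the interval of the ratio did not reach 1. Of the 19 members with at least 100 counts 7 (36.8%) were at least 2-fold lower in TRPV3-OE and 1 (5.26%) was higher. Over all 11466 genes with at least 100 counts, 5.35% were lower and 5.31% were higher by the same rule. The 19 members had a median log2 ratio of −0.65, against −0.03 over all such genes, and 14 of the 19 lay below 0. With a minimum of 20 counts 11 of 30 members were lower and 4 higher, where 6.76% of all genes were lower and 7.85% higher. A member can pass these minimums through the library in which it is abundant, so the counts describe the members that passed and not all 65. Of the 7 lower members with at least 100 counts, all but MMP14 had under 100 in TRPV3-OE and passed through the parental library.

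**Figure D1:**
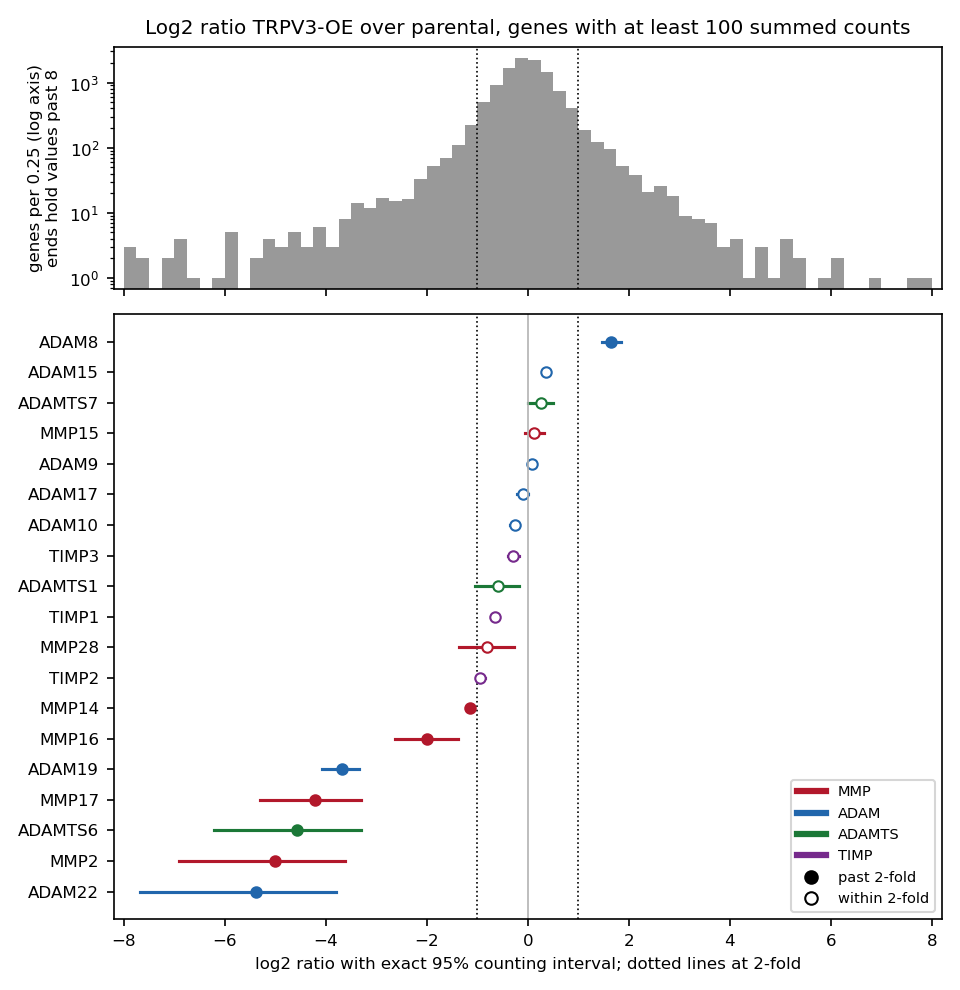
Upper panel: number of genes (log axis) by log2 ratio of TRPV3-OE over parental, for all 11466 genes with at least 100 summed counts, with values past 8 in the end bars. Lower panel: log2 ratio of each of the 19 members that passed, with its exact 95% counting interval, filled where past 2-fold. ADAM8 is the only filled point on the right, and 7 members from MMP14 to ADAM22 are filled on the left.

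**Figure D2:**
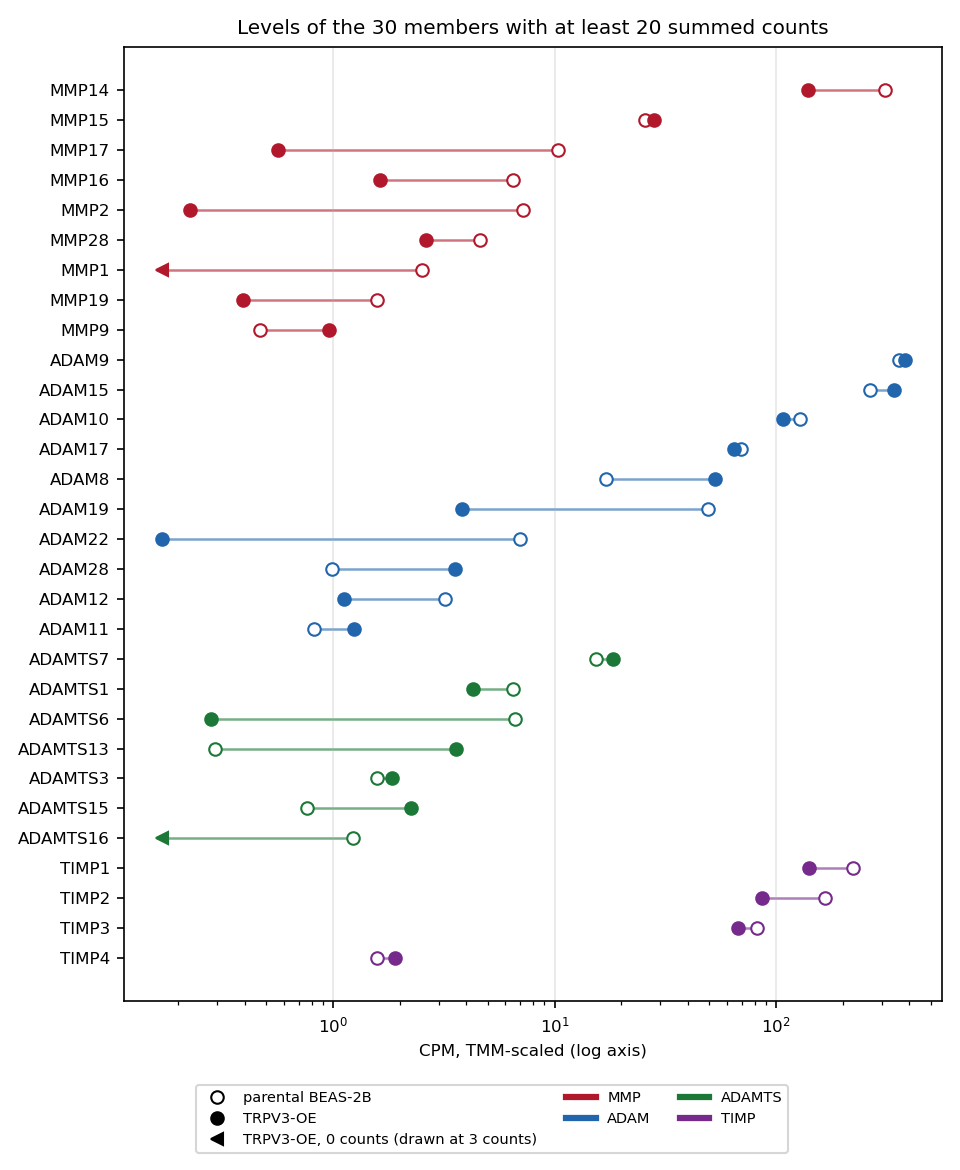
Scaled CPM (log axis) of the 30 members with at least 20 summed counts, open circles for parental and filled circles for TRPV3-OE, coloured by family. Triangles mark MMP1 and ADAMTS16, which had 0 counts in TRPV3-OE and are drawn at 3 counts. The widest gaps belong to members of low level, whereas the abundant ADAM9, ADAM15, ADAM10 and ADAM17 have nearly overlapping circles.

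Membrane-type MMPs, which are held at the cell surface, made up most of the MMP counts. Of 6 such genes 4 had at least 100 counts, and 3 of those were at least 2-fold lower in TRPV3-OE and 0 higher. By the same rule 5.35% of all genes with at least 100 counts were lower and 5.31% higher. MMP14 (ENSG00000157227, chromosome 14, 22836557 to 22849027), the collagenase that also activates the MMP2 zymogen, had 5315 counts in the parental and 2487 in the TRPV3-OE library. Its level was 310 CPM (302 to 319) against 140 CPM (134 to 145), which is 2.22-fold lower (log2 ratio −1.15, −1.22 to −1.08). The intervals of both libraries lay well apart, while its 50 closest neighbours had a median of 0.12. MMP17 (ENSG00000198598, chromosome 12), which is tied to the membrane by a lipid anchor, had 178 parental and 10 TRPV3-OE counts. That is 18.5-fold lower, with a counting interval of 9.83 to 39.3. MMP16 (ENSG00000156103, chromosome 8), a transmembrane enzyme that can also activate MMP2, had 111 and 29 counts and was 3.98-fold lower (2.62 to 6.21). MMP15, the transmembrane relative of MMP14, went the other way by a margin within its interval, with 438 and 498 counts and a log2 ratio of 0.13 (−0.06 to 0.32). The remaining 2 of this kind were near the detection limit, with 12 and 6 counts for MMP25 and 10 and 1 for MMP24 (10.4-fold lower, 1.48 to 451).

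The secreted gelatinases cut denatured collagen and basement membrane collagen. MMP2 (ENSG00000087245, chromosome 16, 55389700 to 55506691) had 124 and 4 counts, or 7.24 CPM (6.02 to 8.63) against 0.225 CPM (0.0612 to 0.575). It was 32.2-fold lower (12.3 to 120), and it shares 174 of its 4933 exon bases with another gene on the same strand, where reads are not counted. MMP9, the other gelatinase, had 8 and 17 counts, a ratio of 2.04-fold higher whose interval (0.836 to 5.47) held 1. So the 2 gelatinases had ratios on opposite sides of 1, that of MMP9 at counts too low to show a difference.

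Apart from MMP1 in the parental library, the collagenases and stromelysins were close to silent. MMP1, the interstitial collagenase (ENSG00000196611, chromosome 11), had 43 counts in the parental and 0 in the TRPV3-OE library, at least 14.9-fold lower against a floor of 3 counts. The exact interval, which also holds the counting error of the parental library, reached up to a log2 ratio of −3.54. Its cluster of 9 MMP genes on chromosome 11 (102520508 to 102955734) held 47 counts in the parental library and 1 in TRPV3-OE. MMP3 and MMP10 gave 3 and 1 of those parental counts, and MMP7 the single TRPV3-OE count. The other 5 genes of the cluster, MMP8, MMP12, MMP13, MMP20 and MMP27, were at 0 in both, as were MMP21 and MMP26 elsewhere. MMP11 had 3 counts in each library. Of the remaining secreted MMPs, MMP28, an epithelial enzyme also called epilysin, had 79 and 47 counts (log2 ratio −0.81, −1.36 to −0.27), which did not pass 2-fold. MMP19 had 27 and 7 counts and was 4.01-fold lower (1.70 to 10.9). Of all 22 MMPs, 6 had at least 100 counts, and 4 of these were lower and 0 higher. The median log2 ratio of these 6 was −1.57. Over all genes with at least 100 counts 5.35% were lower and 5.31% higher. MMP2, MMP16 and MMP17 reached 100 counts only through the parental library (124, 111 and 178 counts, against 4, 29 and 10). The numbers called and the median thus describe the MMPs that passed and not all 22.

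The broadly expressed sheddases were at similar levels in both libraries. ADAM17, which releases tumour necrosis factor and EGF receptor ligands, had 1193 and 1154 counts (log2 ratio −0.10, −0.22 to 0.01). ADAM10, the principal sheddase of NOTCH receptors and cadherins, had 2206 and 1918 counts (log2 ratio −0.26, −0.35 to −0.17). ADAM9, a membrane sheddase, had 6151 and 6811 counts (log2 ratio 0.09, 0.04 to 0.14), and ADAM15, which carries an integrin-binding motif, had 4537 and 6056 (log2 ratio 0.36, 0.30 to 0.42). All 4 stayed within 2-fold of the parental level, although the intervals of ADAM9, ADAM10 and ADAM15 excluded equal levels. The median over the 50 nearest genes was 0.15 for ADAM15, −0.21 for ADAM9, 0.20 for ADAM10 and −0.06 for ADAM17. Relative to its neighbours ADAM10 was at −0.46. ADAM15 shares 306 of 6584 exon bases with DCST1 on the same strand.

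The ADAMs with at least 100 counts that passed 2-fold were ADAM19, ADAM22 and ADAM8. ADAM19 (ENSG00000135074, chromosome 5, 157395534 to 157575775), which processes neuregulin, had 846 counts in the parental and 68 in the TRPV3-OE library. Its level was 49.4 CPM (46.1 to 52.8) against 3.82 CPM (2.97 to 4.84), 12.9-fold lower (10.1 to 16.8). ADAM22 (ENSG00000008277, chromosome 7), the non-proteolytic receptor for the secreted protein LGI1 and best known from neurons, had 120 and 3 counts, 41.6-fold lower (13.9 to 205). ADAM8 (ENSG00000151651, chromosome 10, 133262403 to 133276868), a catalytically active ADAM best known from leukocytes, had 291 parental and 948 TRPV3-OE counts. It went from 17.0 CPM (15.1 to 19.1) to 53.2 CPM (49.9 to 56.7) and was 3.13-fold higher (2.74 to 3.59). It was the only member with at least 100 counts that was called higher. Below 100 counts ADAM28, a lymphocyte and epithelial ADAM, had 17 and 63 counts (3.56-fold higher, 2.06 to 6.50). ADAM12, best known from muscle and mesenchyme, had 55 and 20 (2.86-fold lower, 1.69 to 5.04). ADAM11 had 14 and 22 counts, with an interval that held 1. ADAM21 (8 and 9 counts), ADAM32 (8 and 8) and ADAM20 (2 and 1) were barely detected, and the remaining 7 ADAMs, among them ADAM33, ADAM30 and ADAM23, were at 0.

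ADAMTS genes were the least expressed of the protease families, with 571 counts in all in the parental library and 548 in TRPV3-OE. ADAMTS7, which cleaves cartilage oligomeric matrix protein, led them with 264 and 327 counts (log2 ratio 0.25, 0.01 to 0.49). ADAMTS1, a versican- and aggrecan-cleaving enzyme, had 111 and 76 counts (log2 ratio −0.60, −1.04 to −0.17). Neither passed 2-fold. ADAMTS6 (ENSG00000049192, chromosome 5, 65148736 to 65481920), an enzyme of fibrillin microfibrils and cell junctions, had 114 counts in the parental and 5 in the TRPV3-OE library. It was 23.7-fold lower (9.87 to 74.4).

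Less abundant ADAMTS genes differed in both directions. ADAMTS13, the protease of von Willebrand factor, had 5 parental and 64 TRPV3-OE counts and was 12.3-fold higher (5.01 to 39.2). ADAMTS15, a versican-cleaving enzyme, had 13 and 40 counts (2.96-fold higher, 1.55 to 6.03). ADAMTS16 had 21 and 0 counts, at least 7.28-fold lower against the floor of 3 counts, with an exact interval that reached up to a log2 ratio of −2.44. ADAMTS12, which acts on the same substrate as ADAMTS7, had 15 and 1 (15.6-fold lower, 2.40 to 657). ADAMTS3, which processes procollagen II and VEGF-C, had 27 and 33 counts and an interval on both sides of 1, beside a median log2 ratio of −0.72 over its 50 nearest genes on chromosome 4. ADAMTS14 and ADAMTS17 had 1 or 2 counts in 1 library, and the remaining 9 were at 0, including the aggrecanases ADAMTS4 and ADAMTS5 and the procollagen peptidase ADAMTS2. The summed ADAMTS level was 33.3 CPM and 30.8 CPM (log2 ratio −0.12, −0.29 to 0.06), so that a near-equal sum stood over members that differed in opposite directions.

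None of the inhibitors passed 2-fold, but 3 of 4 had intervals below equal levels. TIMP1 (ENSG00000102265, chromosome X, 47582313 to 47586789), a broad inhibitor of secreted MMPs, had 3798 and 2513 counts, or 222 CPM (215 to 229) against 141 CPM (136 to 147). Its log2 ratio was −0.65 (−0.73 to −0.58). The 50 nearest genes on chromosome X had a median of −0.84, so relative to its neighbours TIMP1 was at 0.19. TIMP2 (ENSG00000035862, chromosome 17), which also bridges MMP14 to the MMP2 zymogen, had 2854 and 1542 counts, or 167 CPM (161 to 173) against 86.6 CPM (82.3 to 91.0). It was 1.92-fold lower (1.81 to 2.05), just short of 2-fold, with a neighbour median of −0.15. TIMP2 shares 198 of 5633 exon bases with CEP295NL on the same strand. TIMP3, which is bound to the matrix and also inhibits ADAM17 and ADAMTS enzymes, had 1412 and 1199 counts (log2 ratio −0.29, −0.40 to −0.18). TIMP4 had 27 and 34 counts and an interval that held 1.

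**Figure D3:**
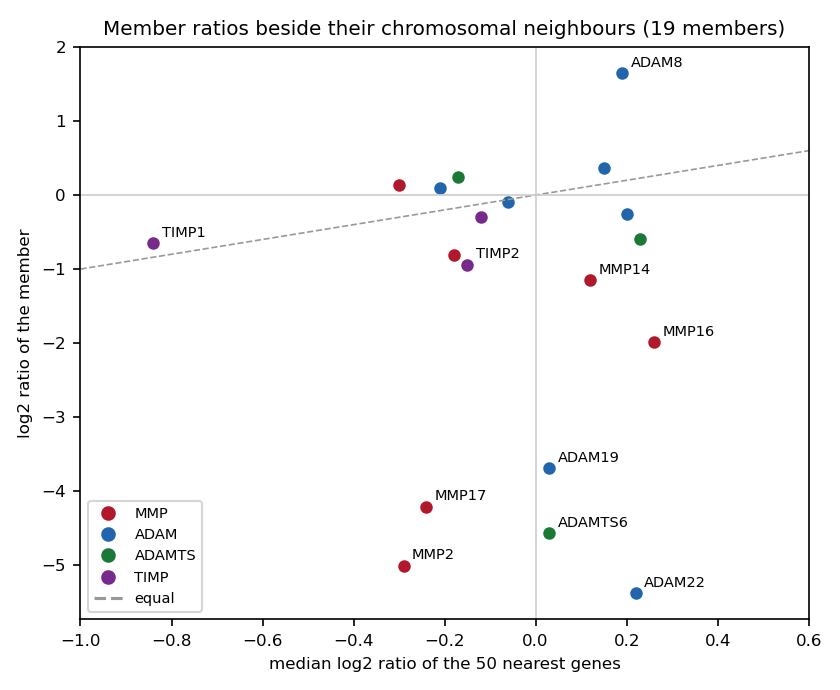
Log2 ratio of each of the 19 members with at least 100 summed counts (vertical) against the median log2 ratio of its 50 nearest such genes (horizontal), coloured by family. The neighbour medians run from −0.84 for TIMP1 to 0.26 for MMP16, and TIMP1 is the member close to the dashed line of equal values at the left. The 8 members past 2-fold lie far from that line.

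The 8 calls were the same after the median of the 50 nearest genes was subtracted from each ratio. The neighbour medians of these 8 members lay between −0.29 (MMP2) and 0.26 (MMP16). In bulk RNA, fewer cells with a transcript and less RNA per cell cannot be told apart.

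Levels of different genes were compared as transcripts per 1000000 transcripts (TPM), which divides by exon length. TIMP1 was the most abundant member in both libraries, at 517 TPM in the parental and 344 TPM in TRPV3-OE. In the parental library it was followed by MMP14 (250 TPM), ADAM9 (187 TPM), ADAM15 (145 TPM) and TIMP2 (106 TPM). In TRPV3-OE the order was ADAM9 (208 TPM), ADAM15 (194 TPM), MMP14 (118 TPM) and TIMP2 (57.8 TPM). MMP14 thus moved from rank 2 to rank 4 among the 65 members. ADAM19 moved from rank 9 to rank 16 and ADAM8 from rank 11 to rank 8. ADAMTS13 went from rank 35 to rank 14, at 0.184 and 2.37 TPM. The length is that of all annotated exons, which lowers the TPM of genes with long or rarely used exons such as ADAM10 (16168 bases).

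MMP14 made up 83.0% of all MMP transcripts by TPM in the parental and 79.2% in the TRPV3-OE library, and MMP15 6.91% and 16.0%. The summed MMP level was 371 CPM and 175 CPM, 2.12-fold lower (log2 ratio −1.09, −1.15 to −1.02), or −0.79 without MMP14. ADAM9 and ADAM15 held most of the ADAM total in both libraries, at 41.8% and 32.4% in the parental and 40.1% and 37.4% in TRPV3-OE. ADAM19 went from 5.16% to 0.359% of that total and ADAM8 from 2.86% to 8.06%. The ADAM sum was 902 CPM and 959 CPM (log2 ratio 0.09, 0.06 to 0.12). Within the ADAMTS family the share of ADAMTS6 was 17.6% and 0.759%, and that of ADAMTS13 1.16% and 14.6%. TIMP1 held 74.8% and 74.6% of the TIMP total, whose sum was 472 CPM and 297 CPM, 1.59-fold lower. Summed by TPM, TIMP transcripts were 2.30 times the MMP transcripts in the parental library and 3.11 times in TRPV3-OE. The ratio of TIMP2 to MMP14 was 0.426 and 0.491.

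**Figure D4:**
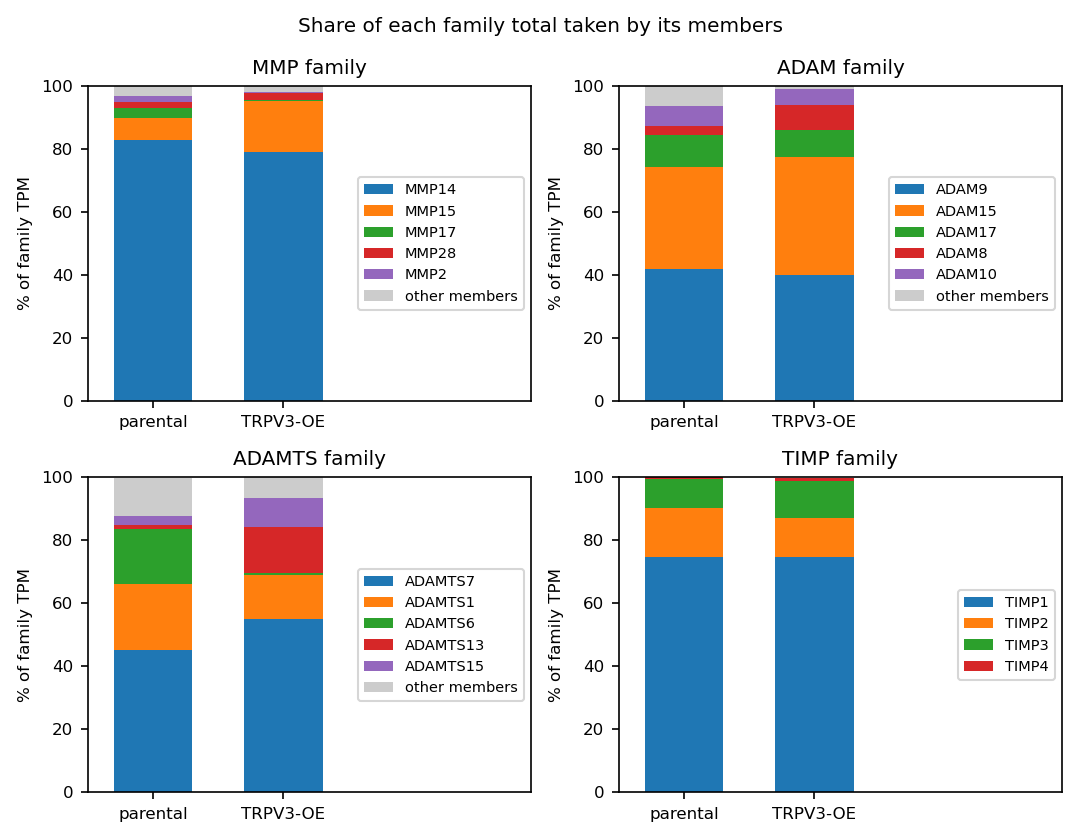
Share of each family's summed TPM (percent, from 0 to 100) taken by its members in the parental and TRPV3-OE libraries, with the 5 highest members named and the rest in grey. MMP14, ADAM9 with ADAM15, ADAMTS7 and TIMP1 lead in both libraries, while the segments of ADAMTS6 and ADAMTS13 differ most.

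Genes that act with these enzymes were read from 5 lists by the same rule. Over all genes with at least 100 counts 5.35% were lower and 5.31% higher, with a median of −0.03. Among activators, anchors and inducers 3 of 12 were lower and 0 higher (median log2 ratio −0.20). They were TSPAN5, a tetraspanin that escorts ADAM10 to the cell surface (861 and 104 counts, 8.61-fold), the hyaluronan receptor CD44 that docks MMPs (2.77-fold) and the caveolin gene CAV1 (2.64-fold). The other tetraspanins of this list with at least 100 counts did not follow TSPAN5. TSPAN15 was 1.97-fold higher (267 and 546 counts), just short of 2-fold. TSPAN14 had 2770 and 2877 counts, and TSPAN17 had a log2 ratio of −0.33. TSPAN5 and CD44 lie among neighbours with medians of −0.73 and −0.72, beside log2 ratios of −3.11 and −1.47. The calls in these lists were not repeated relative to neighbours.

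Of 20 substrates of ADAM10 or ADAM17 with at least 100 counts 6 were lower and 3 higher (median −0.24). The shares over all such genes were 5.35% lower and 5.31% higher. The 3 higher were NOTCH1 (2.68-fold), NOTCH3 (2.53-fold) and JAG1 (2.02-fold, beside a neighbour median of 0.60). The 4 with the largest ratios were the adhesion molecule L1CAM (919 and 15 counts, 63.7-fold lower), N-cadherin (CDH2, 36.5-fold lower), the NOTCH ligand DLL1 (11.9-fold lower) and the EGF receptor ligand HBEGF (366 and 127 counts, log2 ratio −1.58). Of 11 matrix substrates of MMPs and ADAMTS enzymes 7 were lower and 0 higher, with a median of −1.27. Fibronectin (FN1) was 10.5-fold lower, thrombospondin 2 (THBS2) 28.8-fold, and the basement membrane collagen chain COL4A1 4.50-fold and thrombospondin 1 (THBS1) 3.09-fold. Of 5 other metzincins and ADAMTS-like genes 1, ADAMTSL5, was lower (2.21-fold) and 0 were higher (median −0.33).

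Transcription factors of the AP-1 and ETS families act on many MMP promoters. Of 15 such genes, all with at least 100 counts, 3 were lower and 2 higher (median −0.22). Over all genes with at least 100 counts 5.35% were lower and 5.31% higher. The largest were ELF3, an epithelial ETS factor (622 and 2001 counts, 3.09-fold higher), FOS (893 and 365 counts, 2.54-fold lower), FOSL1 (2.47-fold lower) and ETS1 (2.42-fold lower). The letters TGANTCA, a loose form of the AP-1 motif that matches the same places on both strands, were searched in RefSeq promoter windows (GRCh38.p14) from 250 bases before to 50 after the gene start. Windows were at hand for 38 members, of which 4 held these letters (10.5%, against 7.76% of 27305 windows of the same length). Among the members without a window were MMP1, MMP2, MMP3, MMP9, MMP12, MMP13, MMP16 and MMP17. Of the members with at least 100 counts called lower, 4 had a window, and MMP14 was the only MMP among them. MMP7 held TGAGTCA, the form with G in the middle, and MMP10, MMP20 and ADAMTS12 held TGAATCA. Of the 12 windows of members with at least 100 counts 0 held any form. No match says only that these letters are not in this window.

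**Figure D5:**
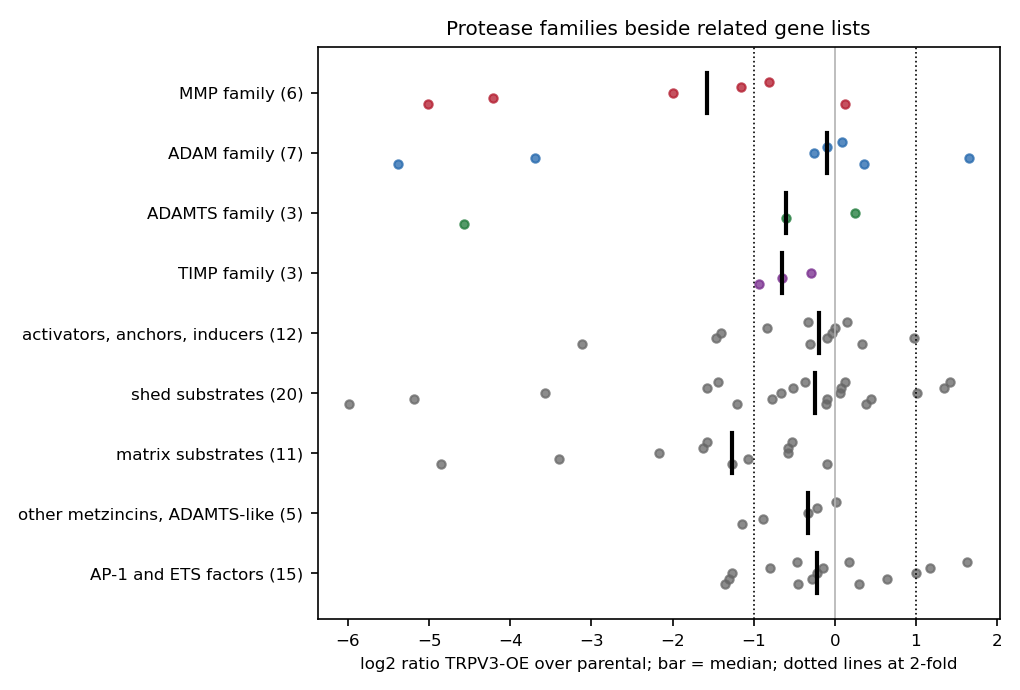
Log2 ratio of TRPV3-OE over parental for every gene with at least 100 summed counts in the 4 families and the 5 related lists, 1 point per gene, with the number of genes in brackets and a bar at the median. MMP genes and matrix substrates have medians left of the dotted 2-fold line, at −1.57 and −1.27, and the other groups have medians between −0.65 and −0.10. Of the MMP genes, MMP2, MMP16 and MMP17 passed the minimum only through the parental library.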

How the data were processed

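RNA was measured in 1 library of parental and 1 library of TRPV3-OE cells, grouped by the genotype label. The deposited files hold unnormalised gene counts that the authors made with featureCounts 1.5.0-p3 (strand setting 2, the opposite strand) from Ensembl 87 models on GRCh38.p7, per the file headers. No option for multi-mapping reads or for reads over several genes was set, per the file headers, so such reads were left out. The submitters' processing notes also list STAR and DESeq2, with no version. The exon length per gene (another deposited column) was used for TPM.

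Symbols came from a gene name table (56948 of 58051 IDs matched) and biotypes and transcripts from GENCODE 29. Libraries were scaled with TMM (edgeR 4.0.16, R 4.3.3). A single library in each group gives no spread to fit, so no model was used. Zinc sites were found in translations of coding transcripts, with Biopython 1.88 for the ADAM22 alignment. The asparagine form of the motif was added after the sequences were seen. Members, lists and thresholds were chosen with earlier results of these data known. Every member with at least 100 summed counts is named, those with 20 to 99 by their counts and the rest more briefly, and up to 4 called genes of each other list with the largest ratios. For the shed substrates the 3 higher genes are named as well, and for the activators the other tetraspanins with at least 100 counts. Another related list is not reported here. The calls and intervals were tested on simulated data drawn with counting error alone, which cannot show how they hold under spread between cultures. Alternatives were other scalings (DESeq2 1.42.0 size factors, total counts, upper quartile), a minimum of 1, 20 or 500 counts, a limit of 1.5-fold or 4-fold, a prior count of 5, protein-coding genes alone, family sums without their most abundant member, and ratios taken relative to the median of 50 neighbouring genes.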

Additional observations from a re-analysis of the deposited data

How the results depend on the processing

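No paired analysis was possible because neither group holds more than 1 library. Leaving out a replicate was likewise not possible. Under the 3 other scalings the members called stayed at 7 lower and 1 higher, and no scaling moved a ratio by more than 0.058 on the log2 scale. Members called higher and lower numbered 4 and 11 with a minimum of 20 counts and 4 and 13 where 1 count sufficed. They numbered 1 and 2 where 500 were required. The minimum of 20 kept 30 members, of which 13.3% were higher and 36.7% lower, against 7.85% and 6.76% of all genes. With a minimum of 500 the 2 lower members were MMP14 and ADAM19, so the other lower calls rest on fewer counts. Shares at minimums of 1 and 500 were not computed. Among the 19 members with at least 100 counts a 1.5-fold limit gave 1 and 11, and a 4-fold limit 0 and 5. Fewer or more genes qualify under these settings by construction. Over all 11466 genes with at least 100 counts the numbers were 609 (5.31%) and 614 (5.35%). They became 1094 and 942 with a minimum of 20, 1314 and 1121 where 1 count sufficed, and 245 and 323 where 500 were required. The 1.5-fold limit gave 1455 and 1627, and the 4-fold limit 151 and 159. Relative to the neighbour medians, 582 genes were higher and 429 lower. The median log2 ratio of the members, −0.65, was −0.45 with a minimum of 20 counts and −0.18 with a minimum of 500, where mainly the abundant ADAMs and TIMPs are left. The log2 ratio of the summed counts was −0.79 for MMPs without MMP14 and −0.53 for ADAMTS genes without ADAMTS7. For ADAMs it was 0.14 with total counts, 0.13 with DESeq2 size factors and 0.15 with upper quartile. For TIMPs it was −0.62 with total counts and −0.61 with upper quartile. Of 150 ratios of the 30 members with at least 20 counts under other settings, 138 stayed within their counting interval or, with a count of 0, past 2-fold. The other 12 left it, all of them of abundant members (ADAM8, ADAM9, ADAM10, ADAM15, MMP14, MMP15, TIMP1, TIMP2 and TIMP3), and no called member changed direction. TIMP1, not called, went from −0.65 to 0.19 after subtraction of its neighbours. The wide intervals of ADAM22, MMP2 and ADAMTS6 follow from 3 to 5 counts in the TRPV3-OE library, so the size of those ratios is poorly fixed at this depth.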
